A study of Mus musculus with 12 samples.

Results

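The interferon gamma induced GTPases are 10 genes, 7 guanylate-binding proteins (Gbp2, Gbp3, Gbp4, Gbp5, Gbp6, Gbp7 and Gbp9) and 3 immunity-related GTPases of the M class (Irgm1, Irgm2 and Igtp). They were taken by symbol from a table of 55401 mouse genes, and all 10 passed the filter on low values that left 15813 genes for testing. By the labels, each RNA library came from a tumour that MTC-Q1 mouse oral cancer cells had formed in the mouth of C57BL/6 mice. Once tumours measured 100 mm3, mice received 1 of 4 agents: a control isotype IgG1-Fc (Ctrl-IgG), a CSF1R antibody (αCSF1R) that binds the receptor for the macrophage growth factor CSF1, interleukin-10 fused to an Fc fragment (IL-10-Fc), or BF10, which joins interleukin-10 to the CSF1R antibody. All groups carried the same cell line and strain labels, each group held 3 libraries, and the labels give no age. The labels do not say how libraries map to animals, so the p-values measure the spread between these libraries.

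Interferon gamma binds its receptor on almost every cell type and activates the kinases JAK1 and JAK2, and the transcription factor IRF1 is raised downstream of them. Guanylate-binding proteins and immunity-related GTPases are among the most inducible targets of this pathway. They gather on membranes that surround intracellular bacteria and parasites and on bacteria in the cytosol, and they help to activate inflammasomes and to recruit autophagy proteins. In tumours these genes often appear in signatures of exposure to interferon gamma.

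In these tumours the 10 genes did not move as a block. Gbp4 was higher in every IL-10-Fc and BF10 library than in any Ctrl-IgG or αCSF1R library, by 2.90 ± 0.31 (SE) on the log2 scale for IL-10-Fc against Ctrl-IgG and by 2.28 ± 0.31 for BF10 against Ctrl-IgG. On the deposited scale Irgm1 lay the other way, lower in every IL-10-Fc and BF10 library, and its IL-10-Fc calls held under 7 (against Ctrl-IgG) and 11 (against αCSF1R) of 21 alternative settings. Gbp5 was called lower in both interleukin-10 groups than in αCSF1R, and Gbp7 and Gbp9 were called higher in IL-10-Fc than in Ctrl-IgG. Gbp2, Gbp3, Gbp6, Irgm2 and Igtp were called in none of the 6 pairs of groups. No member was called between αCSF1R and Ctrl-IgG or between BF10 and IL-10-Fc, where 0% and 0.0126% of all tested genes were called. Between groups with and without interleukin-10, 24.9% to 42.2% of all tested genes were called. A gene was called at a limma adjusted p under 0.05, over all 15813 genes, with a fold change of at least 1.5 on log2(FPKM + 1), where FPKM is fragments scaled to transcript length and to the fragments of the library.

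The libraries without interleukin-10 (Ctrl-IgG and αCSF1R) and those with it (IL-10-Fc and BF10) also stood apart in genes outside the set. Xist, the RNA of the inactive X chromosome, was at most 0.04 FPKM in the 6 libraries without interleukin-10 and 17.1 to 30.7 FPKM in the 6 with it. H2-Ea, a class II gene that C57BL/6 mice are known not to express, was at most 0.27 against 553 to 1727 FPKM. Krt8, a keratin of simple epithelium, was at most 0.28 against 169 to 618 FPKM. Markers of stratified squamous epithelium, the tissue of oral carcinoma, summed to 0.29, 0.35 and 1211 FPKM in the Ctrl-IgG libraries sorted by level, to 1.08, 872 and 1442 FPKM in the αCSF1R libraries, and to at most 32.2 FPKM in all IL-10-Fc and BF10 libraries. Treatment with interleukin-10 and these differences between the libraries cannot be told apart, and this holds for each comparison across the sides. Separately, 4 libraries (BF10 replicate 1, IL-10-Fc replicates 1 and 2, and Ctrl-IgG replicate 2) had FPKM sums over 750000 and a mitochondrial share of 6.57% to 9.04%, against 2.99% to 3.61% in the other 8.

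The stretches before the start sites of Igtp and Irgm2, whose windows were the most alike among members, and of Irgm1, Gbp5 and Gbp7, whose levels differed between groups, are printed here 5′ to 3′. Capitals mark the letters TTCNNNGAA (GAS, the gamma-activated site) or GAAA, 2 bases of any kind and GAAA (ISRE, the form bound by interferon regulatory factors), searched on both strands. Sequences and start sites are from RefSeq on GRCm38.p6, at chr11:58199306-58199555 (+) for Igtp, chr11:58214727-58214976 (+) for Irgm2, chr11:48871421-48871670 (-) for Irgm1, chr3:142496684-142496899 (+) for Gbp5 and chr3:142530086-142530335 (+) for Gbp7. For Gbp5 the last 34 bases before the start site are left out. Of the printed windows, those of Irgm2, Irgm1 and Gbp5 lie inside the gene as GENCODE M21 annotates it. All distances to a start are therefore distances to the RefSeq start used here.
Igtp: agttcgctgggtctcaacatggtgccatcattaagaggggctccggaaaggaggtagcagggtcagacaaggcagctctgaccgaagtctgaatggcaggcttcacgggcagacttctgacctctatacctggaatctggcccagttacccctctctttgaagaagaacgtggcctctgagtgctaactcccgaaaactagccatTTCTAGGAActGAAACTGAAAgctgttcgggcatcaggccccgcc
Irgm2: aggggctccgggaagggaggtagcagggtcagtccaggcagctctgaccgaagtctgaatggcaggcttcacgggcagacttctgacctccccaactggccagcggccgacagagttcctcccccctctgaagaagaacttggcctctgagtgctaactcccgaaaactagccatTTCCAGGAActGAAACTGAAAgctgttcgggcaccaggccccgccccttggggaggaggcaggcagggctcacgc
Irgm1: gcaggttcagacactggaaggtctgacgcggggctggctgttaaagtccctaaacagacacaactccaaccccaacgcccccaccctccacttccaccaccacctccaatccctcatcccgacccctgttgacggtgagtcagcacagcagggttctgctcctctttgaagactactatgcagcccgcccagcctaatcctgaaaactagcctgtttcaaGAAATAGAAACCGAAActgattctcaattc
Gbp5: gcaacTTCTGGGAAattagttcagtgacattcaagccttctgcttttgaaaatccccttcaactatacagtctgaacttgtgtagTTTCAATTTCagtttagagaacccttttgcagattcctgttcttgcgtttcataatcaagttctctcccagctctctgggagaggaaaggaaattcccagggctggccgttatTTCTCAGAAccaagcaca
Gbp7: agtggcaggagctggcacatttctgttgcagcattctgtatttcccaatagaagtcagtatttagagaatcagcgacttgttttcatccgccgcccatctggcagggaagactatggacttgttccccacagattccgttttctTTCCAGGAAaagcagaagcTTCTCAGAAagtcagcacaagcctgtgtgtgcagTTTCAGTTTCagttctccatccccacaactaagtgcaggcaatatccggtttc

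A window of 250 bases before the start site was found for 7 of the 10 members, with a second one for Gbp3, and Gbp4, Gbp6 and Gbp9 had none. The ISRE letters were present in a window of each of these 7 genes, and the GAS letters in a window of 4 (Igtp, Irgm2, Gbp5 and Gbp7). The second Gbp3 window (chr3:142560106-142560355) held neither. Over 32851 such windows of mouse genes, 2.98% held the ISRE letters and 7.02% the GAS letters. In Igtp the GAS letters began 45 bases and the ISRE letters 34 bases before the start, and in Irgm2 75 and 64 bases before it, so the same block with the same spacing recurred in both genes, whose windows were 68.1% identical over 285 aligned columns. Irgm1 held ISRE letters that overlap each other, 30 and 24 bases before the start, and no GAS letters. Gbp7 held GAS letters 106 and 87 bases and ISRE letters 53 bases before the start. Gbp5 held GAS letters 245 and 52 bases and ISRE letters 165 bases before it. The ISRE letters lay 59 bases before the start of Gbp2 and, overlapping each other, 45 and 39 bases before that of Gbp3. These matches are a description of the letters and were not tested against the values.

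**Figure D1:**
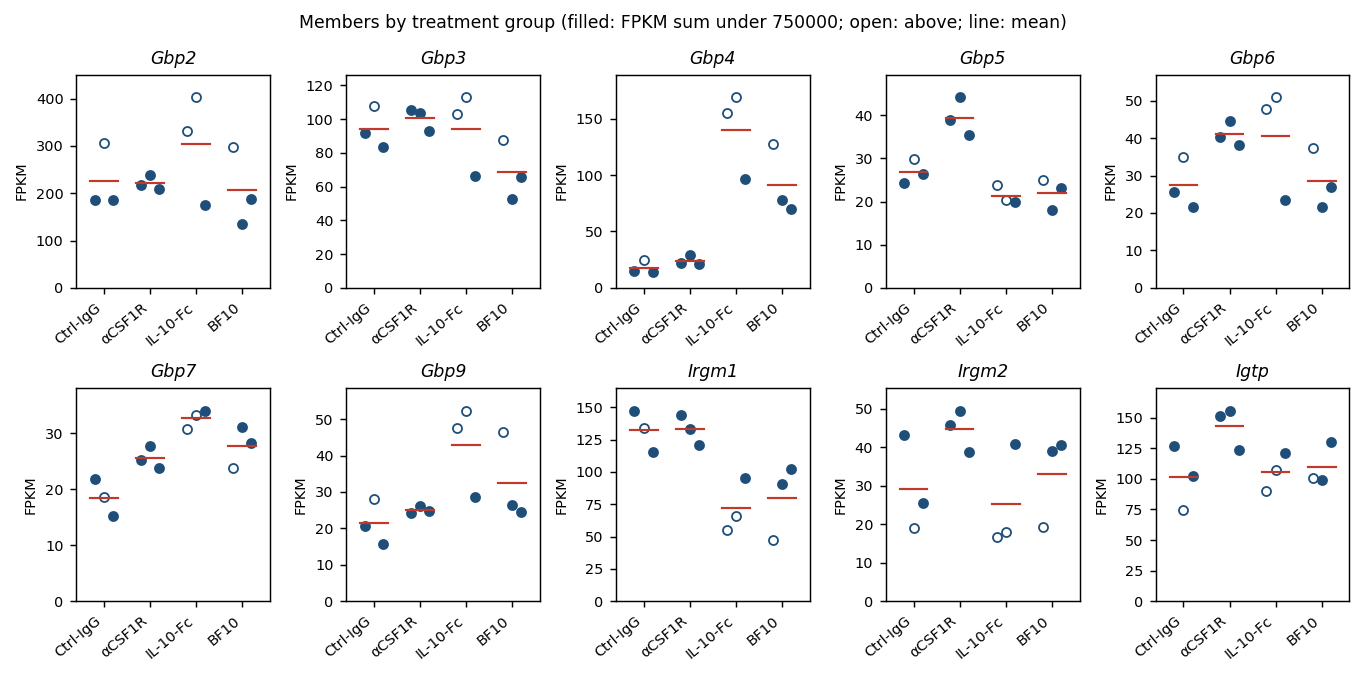
FPKM (linear axis from 0) of the 10 members in the 4 treatment groups. Points are libraries, open where the FPKM sum was over 750000, and the line is the group mean (n = 3). Gbp4 sits at 14.3 to 29.1 FPKM in the Ctrl-IgG and αCSF1R libraries and at 69.8 to 169 FPKM in the others, while Irgm1 sits at 115 to 147 FPKM in the former and 47.4 to 102 FPKM in the latter.

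Gbp4, Gbp6 and Gbp9 lie in a cluster on the minus strand of chromosome 5 (GRCm38, GENCODE M21). Gbp4 (ENSMUSG00000079363, chr5:105115767-105139586), described as a restraint on the transcription factor IRF7, overlaps Gbp9 (ENSMUSG00000029298, chr5:105077630-105139539) and Gbp8 on the same strand. Gbp6 (ENSMUSG00000104713) is at chr5:105270702-105293698. In Gbp4, 3.08% of the 75-base windows of its transcripts also occurred in another gene, and in Gbp9 3.61%. In Gbp6 it was 67.3%, mostly in the predicted gene Gm43302, so the assignment of reads to Gbp6 is uncertain.

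Gbp4 measured 15.1, 24.3 and 14.3 FPKM in Ctrl-IgG and 22.4, 29.1 and 20.9 FPKM in αCSF1R, replicates 1 to 3. It measured 155, 169 and 96.2 FPKM in IL-10-Fc and 127, 77.8 and 69.8 FPKM in BF10. The lowest library with interleukin-10 was above the highest without it, and the range over the 12 libraries, 11.8-fold, was the widest of the 10 members. Gbp4 was called in 4 comparisons, with limma adjusted p = 8.9e-05 for IL-10-Fc and 4.9e-04 for BF10 against Ctrl-IgG. Against αCSF1R it was higher by 2.46 in IL-10-Fc (adjusted p = 2.2e-04) and by 1.85 in BF10 (adjusted p = 1.7e-03), each ± 0.31 (SE, log2 scale). Within the 8 libraries of low FPKM sum, where IL-10-Fc keeps 1 library that is assumed to vary like the other groups, the 4 differences were 2.63, 2.25, 1.97 and 1.59 in the same order. Between BF10 and IL-10-Fc the Gbp4 ranges overlapped and the gene was not called (adjusted p = 0.478).

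Gbp9 measured 20.7, 28.0 and 15.6 FPKM in Ctrl-IgG and 24.3, 26.2 and 24.7 FPKM in αCSF1R. It measured 47.7, 52.3 and 28.6 FPKM in IL-10-Fc and 46.4, 26.5 and 24.6 FPKM in BF10. The IL-10-Fc libraries all lay above the Ctrl-IgG libraries, by a narrow margin in IL-10-Fc replicate 3, while BF10 overlapped both groups without interleukin-10. Gbp9 was higher in IL-10-Fc than in Ctrl-IgG by 0.96 ± 0.31 (SE, log2 scale, limma adjusted p = 0.0359). This call was lost without Ctrl-IgG replicate 1 or 3 (adjusted p = 0.0928 and 0.13), without IL-10-Fc replicate 1 or 2 (adjusted p = 0.116 and 0.126), and without any 1 of the αCSF1R libraries, whose spread enters the fit (adjusted p from 0.0534 to 0.0546). It was also lost with every gene above 0 (adjusted p = 0.0635) and with these groups alone (adjusted p = 0.107), and was kept under 12 of 21 alternatives. Within the libraries of low FPKM sum, where IL-10-Fc keeps 1 library, the difference was 0.64.

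Gbp6 measured 25.7, 35.0 and 21.7 FPKM in Ctrl-IgG and 40.4, 44.4 and 38.2 FPKM in αCSF1R. It measured 47.8, 50.9 and 23.3 FPKM in IL-10-Fc and 37.2, 21.5 and 27.0 FPKM in BF10. All αCSF1R libraries lay above the Ctrl-IgG and the BF10 libraries, but Gbp6 was called in no comparison. Among the libraries of low FPKM sum, IL-10-Fc replicate 3 (23.3 FPKM) and BF10 replicates 2 and 3 (21.5 and 27.0 FPKM) lay below all αCSF1R libraries.

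Gbp5, Gbp7, Gbp3 and Gbp2 lie in this order on the plus strand of chromosome 3. Gbp5 (ENSMUSG00000105504, chr3:142493978-142522344) is prenylated at its C terminus and has been linked to inflammasome assembly, and 0.578% of its 75-base windows occurred in other genes. Gbp7 (ENSMUSG00000040253, chr3:142530342-142550149) shared 11.3% of its windows, mostly with the overlapping predicted gene Gm43802. Gbp3 (ENSMUSG00000028268, chr3:142560026-142573209) shared 2.06%. Gbp2 (ENSMUSG00000028270, chr3:142620602-142638008), also prenylated, acts in the release of bacterial DNA that AIM2 senses and shared 0.955%.

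Gbp5 measured 24.3, 29.8 and 26.4 FPKM in Ctrl-IgG and 38.8, 44.1 and 35.3 FPKM in αCSF1R. It measured 23.8, 20.4 and 19.9 FPKM in IL-10-Fc and 25.1, 18.1 and 23.1 FPKM in BF10. The αCSF1R libraries were the highest 3 of the 12. Gbp5 differed from αCSF1R by -0.85 ± 0.19 (SE, log2 scale) in IL-10-Fc (limma adjusted p = 0.0061), and by -0.82 ± 0.19 in BF10 (adjusted p = 0.0107). Scaling the libraries by median-of-ratios ended both calls (adjusted p = 0.563 for IL-10-Fc and 0.158 for BF10), as did quantile scaling (0.253 and 0.0828). The BF10 call was also lost without BF10 replicate 2 (adjusted p = 0.0532) and without αCSF1R replicate 2 (adjusted p = 0.0548).

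Gbp7 measured 21.9, 18.6 and 15.2 FPKM in Ctrl-IgG and 25.3, 27.8 and 23.7 FPKM in αCSF1R. It measured 30.8, 33.3 and 34.1 FPKM in IL-10-Fc and 23.8, 31.1 and 28.3 FPKM in BF10. Every treated library of the 3 other groups lay above every Ctrl-IgG library. Only the IL-10-Fc difference was called, at 0.80 ± 0.19 (SE, log2 scale, limma adjusted p = 0.0092), and the call was lost on the TPM scale (adjusted p = 0.127) and when these groups were fitted alone (adjusted p = 0.0825). For BF10 the adjusted p was 0.0546 and for αCSF1R 0.959.

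Gbp3 measured 92.0, 108 and 83.5 FPKM in Ctrl-IgG and 105, 104 and 93.0 FPKM in αCSF1R. It measured 103, 113 and 66.1 FPKM in IL-10-Fc and 87.4, 52.4 and 65.5 FPKM in BF10. The BF10 libraries lay below all αCSF1R libraries, and no comparison was called. IL-10-Fc replicate 3 (66.1 FPKM), the IL-10-Fc library of low FPKM sum, also lay below all αCSF1R libraries. Gbp2 measured 186, 305 and 186 FPKM in Ctrl-IgG, 218, 239 and 209 FPKM in αCSF1R, 332, 403 and 175 FPKM in IL-10-Fc, and 298, 136 and 189 FPKM in BF10. Gbp2 was the highest member in 12 of 12 libraries on this per-length scale, its groups all overlapped, and it was called in no comparison. The high value in 3 of the groups was in a library of high FPKM sum.

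Irgm1, Irgm2 and Igtp are known as regulatory GTPases, which hold the effector GTPases of the family inactive on the membranes of the cell itself. All are on chromosome 11, Irgm1 (ENSMUSG00000046879) on the minus strand at chr11:48861968-48871683, and Igtp (ENSMUSG00000078853, chr11:58199556-58207591) and Irgm2 (ENSMUSG00000069874, chr11:58199618-58222782) overlapping on the plus strand. Irgm1 shared 0% of its 75-base windows with other genes, Irgm2 4.78% and Igtp 7.8%, the last of these with Irgm2.

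Irgm1 measured 147, 134 and 115 FPKM in Ctrl-IgG and 144, 133 and 121 FPKM in αCSF1R. It measured 54.7, 65.8 and 95.4 FPKM in IL-10-Fc and 47.4, 90.4 and 102 FPKM in BF10. The highest library with interleukin-10 was below the lowest without it, and the lowest 3 values were in libraries of high FPKM sum. Irgm1 was called in IL-10-Fc against Ctrl-IgG, at -0.90 ± 0.30 (SE, log2 scale, limma adjusted p = 0.0383), and against αCSF1R, at -0.91 ± 0.30 (adjusted p = 0.0315). The corresponding differences for BF10 were not called (adjusted p = 0.079 and 0.0753). They were called, again lower, with the log2 FPKM sum as covariate, with the title number as a term and without IL-10-Fc replicate 3. The one against Ctrl-IgG was also called by median-of-ratios, and the one against αCSF1R without BF10 replicate 3. Within the libraries of low FPKM sum, where IL-10-Fc keeps 1 library, the IL-10-Fc differences were -0.45 and -0.47. By median-of-ratios they were -0.39 and -0.27 and were not called (adjusted p = 0.24 and 0.385). Both calls were also lost without IL-10-Fc replicate 1 (adjusted p = 0.143 and 0.121), without IL-10-Fc replicate 2 (0.103 and 0.0899) and without any 1 αCSF1R library (from 0.0547 to 0.057 and from 0.0575 to 0.0954), and the call against Ctrl-IgG without any 1 Ctrl-IgG library (adjusted p from 0.0606 to 0.121).

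Irgm2 measured 43.1, 19.1 and 25.5 FPKM in Ctrl-IgG and 45.9, 49.5 and 38.7 FPKM in αCSF1R. It measured 16.7, 18.01 and 40.7 FPKM in IL-10-Fc and 19.3, 38.9 and 40.5 FPKM in BF10. The 4 lowest values were those of the 4 libraries of high FPKM sum, and Irgm2 was called in no comparison. Igtp measured 127, 74.8 and 103 FPKM in Ctrl-IgG, 151, 156 and 124 FPKM in αCSF1R, 90.1, 107 and 121 FPKM in IL-10-Fc, and 100, 99.1 and 130 FPKM in BF10. Its range over the 12 libraries, 2.09-fold, was the narrowest of the members, the IL-10-Fc libraries all lay below the αCSF1R libraries, and it was called in no comparison.

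**Figure D2:**
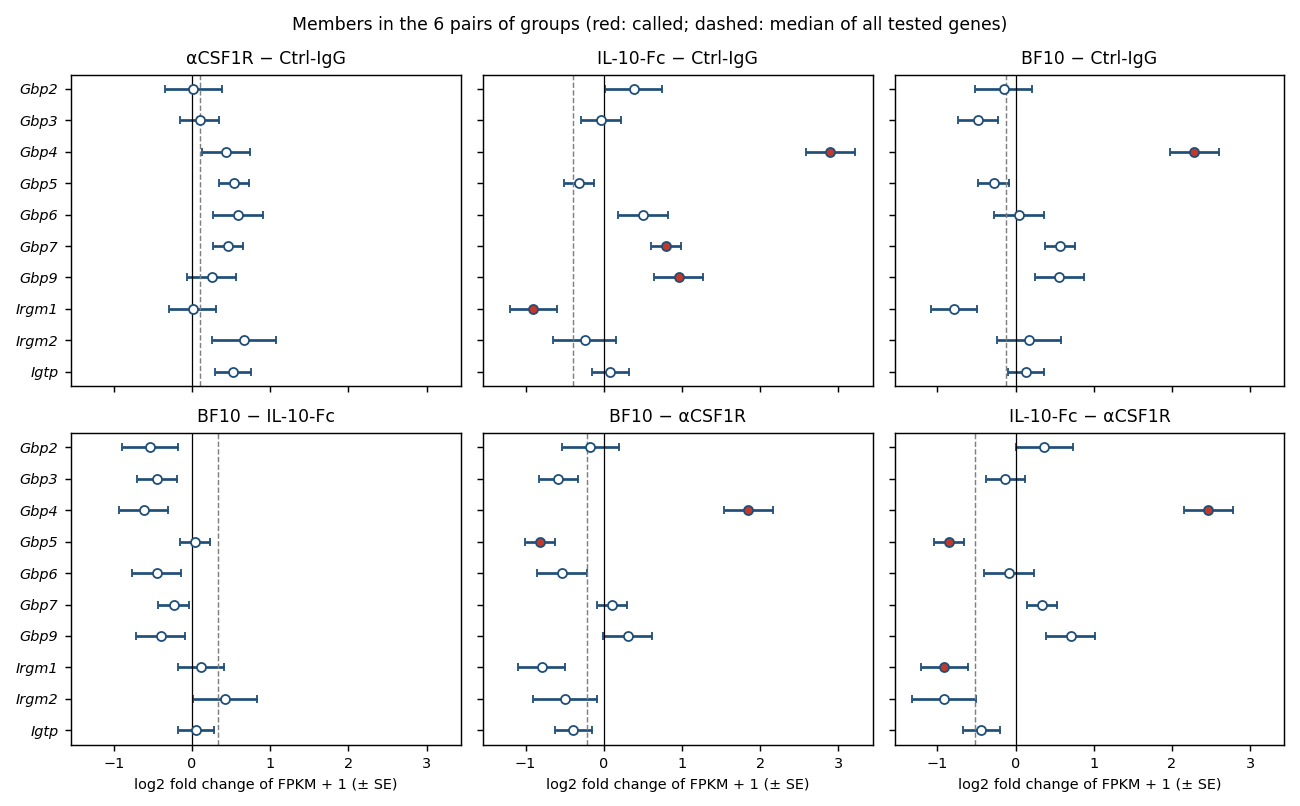
Log2 fold change of FPKM + 1 (± SE from limma) of the 10 members in the 6 pairs of groups, red where called and with a dashed line at the median of all 15813 tested genes. Gbp4 is the member farthest to the right wherever an interleukin-10 group is set against a group without it, up to 2.90. No member is called in αCSF1R against Ctrl-IgG or BF10 against IL-10-Fc, where 0% and 0.0126% of all tested genes were called.

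Counted over the members, αCSF1R against Ctrl-IgG, which differ by the antibody in their labels, gave 0 of 10 calls by limma against 0% of all tested genes. At an unadjusted p under 0.05 there were 3 members (Gbp5, Gbp7 and Igtp), against 2.76% of all genes. Gbp5, Gbp6 and Gbp7 were higher in all αCSF1R libraries than in all Ctrl-IgG libraries, 3 of 10 members against 14.9% of genes whose groups did not overlap. The median log2 difference was 0.45 over the members and 0.11 over all genes. Summed markers of macrophages, the cells that carry CSF1R, were 236 to 264 FPKM in αCSF1R and 404 to 757 FPKM in Ctrl-IgG. In bulk tissue fewer cells of a type and less RNA per cell cannot be told apart.

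Across the sides, the agent cannot be told apart from the split of the libraries in Xist, H2-Ea and Krt8. IL-10-Fc against Ctrl-IgG gave 4 calls of 10 (Gbp4, Gbp7 and Gbp9 higher, Irgm1 lower), where 33.7% of all genes were called. Groups did not overlap for 5 members, with Gbp5 added on the lower side, and for 37.3% of genes. BF10 against Ctrl-IgG gave 1 call (Gbp4), where 24.9% of genes were called, and 3 members did not overlap (Gbp4 and Gbp7 higher, Irgm1 lower), where 38.4% of genes did not. The shares of members called in IL-10-Fc were near the background, and those in BF10 below it. The members' median difference was 0.23 in IL-10-Fc and 0.09 in BF10, and that of all genes -0.39 and -0.12. Median-of-ratios brought the median of all genes in IL-10-Fc to 0.01.

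Against αCSF1R, BF10 gave 2 calls (Gbp4 higher, Gbp5 lower) where 25% of genes were called, and 5 members did not overlap (Gbp4 higher, and Gbp3, Gbp5, Gbp6 and Irgm1 lower) where 55.7% of genes did not. IL-10-Fc gave 3 calls (Gbp4 higher, Gbp5 and Irgm1 lower) where 42.2% of genes were called. By median-of-ratios and by quantile scaling the 3 calls were Gbp4, Gbp7 and Gbp9, all higher. In IL-10-Fc against αCSF1R 6 members did not overlap (Gbp4, Gbp7 and Gbp9 higher, Gbp5, Irgm1 and Igtp lower) where 56.1% of genes did not. The members' median was -0.44 in BF10 and -0.11 in IL-10-Fc, against -0.21 and -0.51 for all genes. The comparisons share groups and are not independent of each other.

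BF10 against IL-10-Fc, which differ by the CSF1R antibody arm, gave 0 calls among the members by limma, where 0.0126% of genes were called, and 0 members at an unadjusted p under 0.05, where 5.24% of genes were. Single libraries moved this background, from 2 to 115 genes called without BF10 replicate 1, and from 828 to 7834 genes at an unadjusted p under 0.05 without IL-10-Fc replicate 3. No member (0 of 10) had groups that did not overlap, against 5.18% of genes. The median difference was -0.32 over the members and 0.34 over all genes. BF10 was also set against IL-10-Fc plus αCSF1R minus Ctrl-IgG (log2 scale), and this departure from additivity was called for 0 members, where 0.00632% of genes were called. At an unadjusted p under 0.05 there were 3 members (Gbp4, Gbp6 and Gbp7), against 2.61% of genes, all with BF10 below the value that adding both would give. The median departure was -0.55 over the members and 0.19 over all genes.

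Within groups some of the members fell into sets that moved against each other. In the 3 groups that held both kinds of library, Gbp2, Gbp3, Gbp4, Gbp5, Gbp6 and Gbp9 were higher in each library of high FPKM sum than in each other library of the same group, 6 of 10 members where 17.7% of tested genes did so. Irgm2 was lower in each of them, 1 of 10 members where 45.9% of genes were. On the TPM scale, where every library has the same sum, Gbp5 left the first set, and Irgm1 and Igtp joined Irgm2 in the second, where 10.7% of genes were above and 56.8% below. By median-of-ratios Gbp7 joined the first set and Irgm2 stayed alone in the second, where 29.3% of genes were above and 31% below. As a description over the 12 libraries with group means subtracted, Pearson's r was 0.97 between Gbp2 and Gbp3, 0.95 between Gbp4 and Gbp9, 0.84 between Irgm1 and Irgm2, and -0.85 between Gbp2 and Irgm2. Other pairs were less clear. Gbp7 had r = 0.69 with Irgm1 and 0.66 with Irgm2, and Igtp had r = -0.31 with Gbp3 and -0.23 with Gbp5. These values share the 4 libraries of high FPKM sum and high mitochondrial share, and the part of these in them was not tested.

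**Figure D3:**
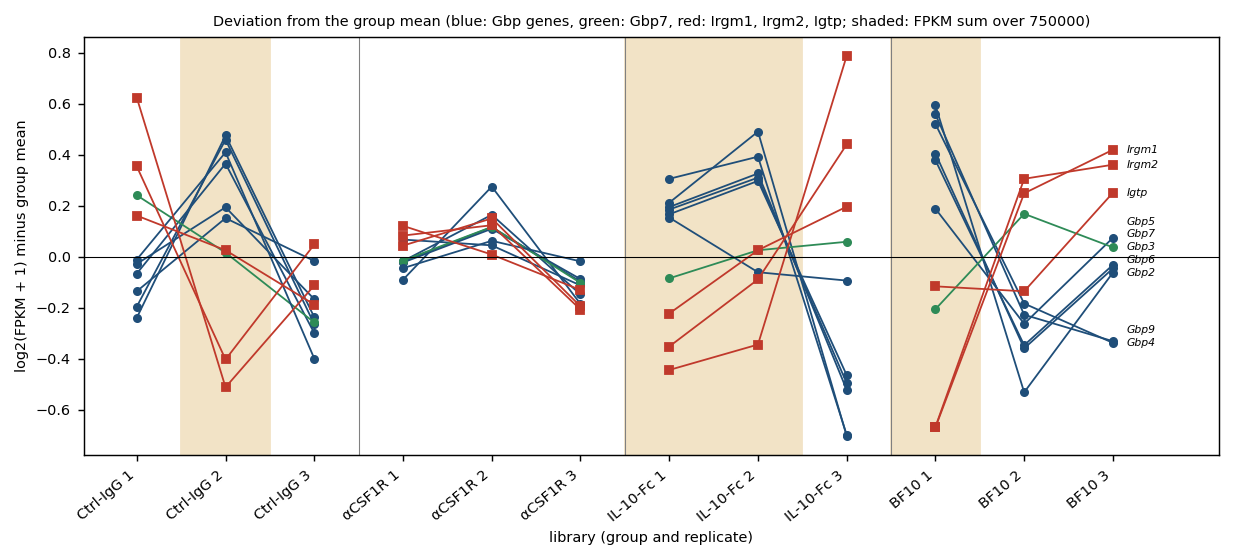
Deviation of log2(FPKM + 1) from the group mean for each member in each of the 12 libraries, with Gbp genes in blue, Gbp7 in green, and Irgm1, Irgm2 and Igtp in red. In the 4 shaded libraries, those with an FPKM sum over 750000, Gbp2, Gbp3, Gbp4, Gbp6 and Gbp9 lie above 0 and Irgm2 below 0, and the αCSF1R group holds no such library.

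Gbp2b, a relative that lies between Gbp3 and Gbp2, was farther apart between the sides than any member, by 6.96 ± 0.43 (SE, log2 scale) for IL-10-Fc against Ctrl-IgG (limma adjusted p = 4.2e-06). It measured 0.39, 1.43 and 0.86 FPKM in Ctrl-IgG and 0.21, 0.20 and 0.17 FPKM in αCSF1R. Its values were 268, 346 and 129 FPKM in IL-10-Fc and 238, 100.6 and 85.2 FPKM in BF10. For the relatives too, the agent and the split of the libraries in Xist, H2-Ea and Krt8 cannot be told apart. Gbp10, next to Gbp6, was 2.36 to 8.6 FPKM in the libraries without interleukin-10 and 10.9 to 40.8 FPKM in those with it, and was called in 3 of the 4 comparisons across the sides, the exception being BF10 against αCSF1R. The effector GTPases Tgtp1, Tgtp2 and Iigp1 overlapped between the sides (53.4 to 100, 45.5 to 85.3 and 57.7 to 120 FPKM without, 57.3 to 218, 60.0 to 224 and 85.5 to 299 FPKM with interleukin-10). Of 12 relatives tested, 5 were called higher and 2 lower in IL-10-Fc against Ctrl-IgG, and 2 higher (Gbp2b and Gbp10) and 2 lower (Gvin1 and Gm5431) in BF10 against Ctrl-IgG, where 33.7% and 24.9% of all genes were called.

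**Figure D4:**
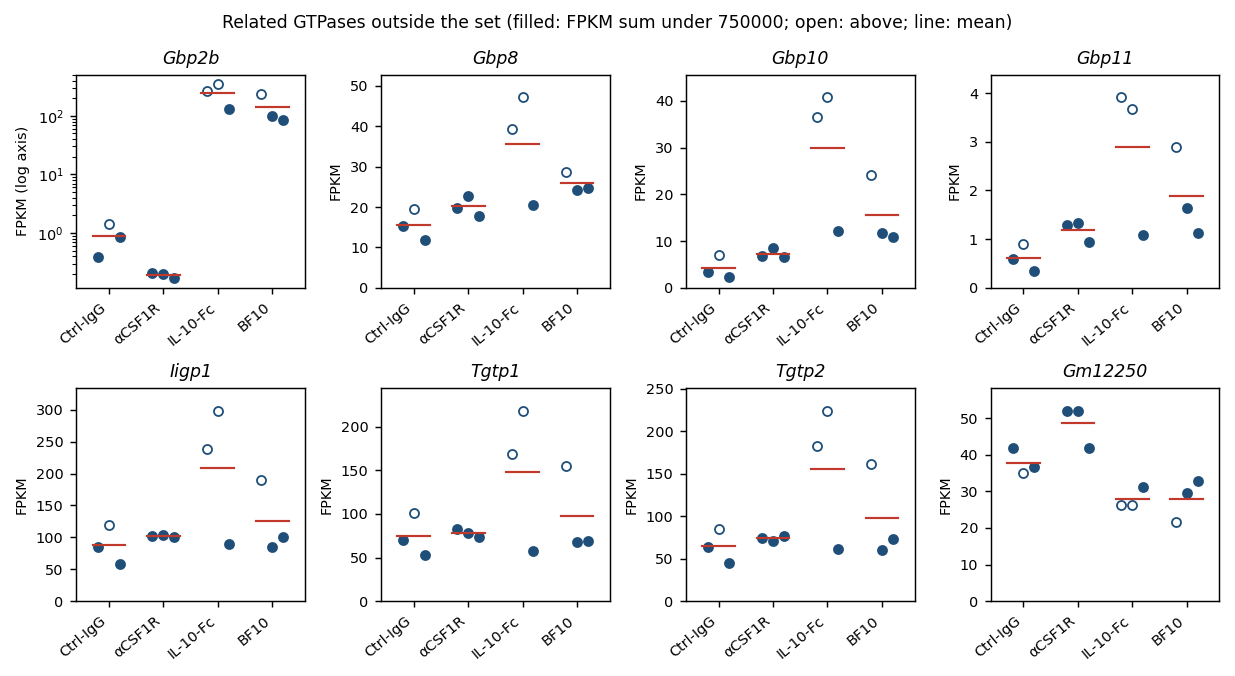
FPKM of 8 relatives outside the set in the 4 groups, with points for libraries (open where the FPKM sum was over 750000) and lines for group means (n = 3). The axis is logarithmic for Gbp2b and linear from 0 for the rest, and Gbp2b does not exceed 1.43 FPKM without interleukin-10 and starts from 85.2 FPKM with it.

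The pathway above the GTPases was measured too. Ifng itself was low everywhere, 1.51 to 2.57 FPKM without and 0.89 to 2.46 FPKM with interleukin-10, and was called in no comparison. Among the genes of interferon gamma signalling, Jak2 was called higher and Stat2 lower in IL-10-Fc against Ctrl-IgG, where 33.7% of all genes were called. Jak2 was also called higher in BF10 against Ctrl-IgG, where 24.9% were. Against αCSF1R, Jak2 was called higher in both interleukin-10 groups, and Stat2, Irf9 and Irf1 lower in IL-10-Fc. There 42.2% of all genes were called in IL-10-Fc and 25% in BF10. Irf1 was 138 to 209 FPKM without and 78.2 to 160 FPKM with interleukin-10, and the sides overlapped. Jak2 was 15.1 to 23.5 FPKM without and 76.0 to 161 FPKM with interleukin-10, and the sides did not overlap. Of 20 other interferon gamma targets, 6 were called higher and 2 lower (Cxcl10 and Psmb10) in IL-10-Fc, and 4 higher and 2 lower in BF10, with medians of 0.21 and 0.10, where 33.7% and 24.9% of all genes were called and their medians were -0.39 and -0.12. Cxcl10, a chemokine for T cells, was 551 to 690 FPKM without and 26.9 to 178 FPKM with interleukin-10, while Ciita, the master regulator of class II genes, was 0.87 to 2.55 and 4.46 to 19.0 FPKM.

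Targets of type I interferon, many of which also respond to interferon gamma, were lower as a list. Of 15 tested, 13 were called lower and 0 higher in IL-10-Fc against Ctrl-IgG (median -2.01), and 11 lower and 0 higher in BF10 (median -1.55), again beside 33.7% and 24.9% of all genes called in either direction. Of 15 partners in autophagy, prenylation and inflammasomes, 3 were called lower in IL-10-Fc (Aim2, Sqstm1 and Atg16l1) and 3 in BF10 (Casp4, Aim2 and Sqstm1) against Ctrl-IgG, beside the same shares of all genes. Aim2, the DNA sensor that acts with Gbp2 and Gbp5, was 23.4 to 37.1 FPKM without and 5.17 to 17.8 FPKM with interleukin-10. By limma these lists and the relatives had 0 calls in αCSF1R against Ctrl-IgG and in BF10 against IL-10-Fc, beside 0% and 0.0126% of all genes. At an unadjusted p under 0.05 the former comparison held 2 of the other interferon gamma targets and 1 type I target, and the latter 1 and 2.

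Markers of cell types moved beside these comparisons. Macrophage markers summed to 786 to 1241 FPKM in IL-10-Fc and 1023 to 1128 FPKM in BF10, with 3 of 7 called higher than in Ctrl-IgG in each. Against Ctrl-IgG, 33.7% of all genes were called in IL-10-Fc and 24.9% in BF10, the background for the counts given here. T cell markers summed to 14.1 to 16.5 FPKM in Ctrl-IgG, 13.0 to 18.6 in αCSF1R, 13.2 to 23.7 in IL-10-Fc and 27.3 to 49.8 in BF10, where 2 of 5 tested were called higher than in Ctrl-IgG. NK cell markers summed to 17.98 to 44.5, 21.7 to 23.7, 5.56 to 23.7 and 8.51 to 14.3 FPKM in the same order. Of 5 tested, 1 (Eomes) was called lower in each interleukin-10 group than in Ctrl-IgG. Neutrophil markers summed to 29.4 to 301, 168 to 330, 971 to 4396 and 484 to 1559 FPKM in that order. Of 4 tested, 2 (S100a8 and S100a9) were called higher in each interleukin-10 group than in Ctrl-IgG. Simple epithelium markers were at most 3.78 FPKM without and at least 505 FPKM with interleukin-10, with 4 of 4 called in both groups against Ctrl-IgG. Fibroblast markers had 2 of 4 called higher in each interleukin-10 group than in Ctrl-IgG, skeletal muscle markers 1 of 5 called lower in IL-10-Fc, and dendritic cell and endothelial markers 0 calls in any comparison, with at most 2 of a list at an unadjusted p under 0.05. B cell markers summed to 1.2, 80.8 and 144 FPKM in the BF10 libraries sorted by level and to at most 4.39 FPKM in the other groups. Of these markers 2 were tested, with 0 calls by limma, and both were at an unadjusted p under 0.05 in BF10 against Ctrl-IgG and against IL-10-Fc. The part of these cell types in the members' levels was not tested.

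By the rule for likeness, the tested genes outside the set whose log2(FPKM + 1) followed the mean of the members most closely over the 12 libraries were Apol10b (r = 0.87), Gm12185 (r = 0.85) and Gm36738 (r = 0.83), and Gbp8 was among the first 8 (r = 0.79). With group means subtracted the closest were Zbed5 (r = 0.93), S100a5 (r = 0.92) and Gm32856 (r = 0.92), and the list of 8 held Trim5 (r = 0.89).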

How the data were processed

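RNA of orthotopic oral tumours was sequenced in 12 libraries, 3 for each of 4 treatments, after preparation with a stranded mRNA kit. The authors deposited FPKM values for 55401 genes per library, rounded and not scaled between libraries. The submitters' processing notes name STAR 2.7.5a, RSEM 1.3.3 and DESeq2 1.30.0 and mouse GRCm38. Deposited tables of the authors' own DESeq2 comparisons (fold changes and p-values) were not used. FPKM carries no counts, so the depth behind single values is unknown and no count model was fitted.

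Groups came from the treatment label of each sample. Replicate numbers follow sample order and only name libraries. Tests used genes that reached 1 FPKM in 3 or more libraries, as log2(FPKM + 1), on which the changes of low genes look smaller than they are. limma 3.58.1 in R 4.3.3 (lmFit, contrasts.fit, eBayes with trend) fitted all 12 libraries together, with Benjamini-Hochberg adjustment over 15813 genes, and was tested on simulated data. Alternatives were a pseudocount of 0.1, all genes above 0, median-of-ratios, quantile and TPM scaling (FPKM rescaled to equal sums), the compared groups alone, the log2 FPKM sum as a covariate, a term for the leading number in the sample titles (above 4 or not), each library left out, and, added after the data were seen, only the 8 libraries with an FPKM sum under 750000.

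The members and all lists (relatives, interferon gamma signalling, other interferon gamma targets, type I interferon targets, partners, cell type markers) were chosen with earlier results of these data known. All members are named. Other genes came from those lists or from the 8 genes most like the mean of the members. Positions are from GENCODE M21, which held 99.5% of the identifiers. Windows of 75 bases were compared between transcripts, and promoter windows (RefSeq, GRCm38.p6) were aligned with Biopython 1.88. Stretches annotated as untranslated were not printed, and 1 gene of the signalling list is not reported here.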

Additional observations from a re-analysis of the deposited data

How the results depend on the processing

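Each comparison of a pair of groups was repeated under 21 alternatives, and the departure from additivity under all of these except the fit of these groups alone. All 4 Gbp4 calls were kept under each of them. None of the 10 called differences reversed, and of the 60 that were not called, 27 changed sign under at least one alternative. The number of members called in IL-10-Fc against Ctrl-IgG was 4 and became 2 with every gene above 0, 2 on the TPM scale and 1 with these groups alone, and ranged from 2 to 5 when 1 library was left out. For BF10 against Ctrl-IgG it was 1 and became 2 by median-of-ratios, 2 by quantile scaling, 3 with the log2 FPKM sum as covariate and 3 with the title number as a term, with 1 to 2 when 1 library was left out. For BF10 against αCSF1R it was 2 and became 1 by median-of-ratios, 1 by quantile scaling and 5 with the covariate, with 1 to 3 when 1 library was left out. For IL-10-Fc against αCSF1R it was 3 (Gbp4, Gbp5 and Irgm1), also 3 but Gbp4, Gbp7 and Gbp9 by median-of-ratios and by quantile scaling, and ranged from 2 to 5 when 1 library was left out, with 5 without IL-10-Fc replicate 3. The causes were not tested. No paired analysis was possible because the labels give no replicate numbers shared by the groups.

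The member counts above have the counts of all genes called as their background, which also moved with the setting. All genes called in BF10 against Ctrl-IgG numbered 3941 of 15813. They numbered 4306 by median-of-ratios, 4646 by quantile scaling, 6901 with the covariate and 4726 with the title number as a term. In BF10 against αCSF1R they numbered 3955, and 4129 by median-of-ratios, 4684 by quantile scaling and 6740 with the covariate. In IL-10-Fc against αCSF1R they numbered 6669, and 6020 by median-of-ratios, 6244 by quantile scaling and 9587 without IL-10-Fc replicate 3. In IL-10-Fc against Ctrl-IgG they numbered 5326, and 2734 with these groups alone. There they were 4554 of 36540 with every gene above 0 and 4837 of 16823 on the TPM scale. By median-of-ratios the calls in IL-10-Fc against Ctrl-IgG were 2598 higher and 2612 lower, against 1597 and 3729 as deposited.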
